A study of Sus scrofa with 12 samples.

Results

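The genes described here are those of the ubiquitin-proteasome system that carry the symbols PSMA, PSMB, PSMC, PSMD or PSME, for proteasome subunits, chaperones and activators, or UBE2, for ubiquitin-conjugating enzymes and their variants. They were chosen by symbol alone, among probe sets that the annotation of the Affymetrix porcine array ties to a single symbol. This gave 82 probe sets for 61 of the 6765 genes with such a symbol, 37 proteasome genes and 24 UBE2 genes. A gene with several probe sets was counted by the one of greatest mean signal, and all 61 passed the filter on low signals that left 5810 genes. Total RNA came from the liver of 12 adult German Landrace pigs, with 1 array per animal, and the signals are linear fluorescence intensities of a probe set. The animals formed 4 groups of 3, each of 1 female and 2 males, by a label of low or high stress response crossed with a label of low or high aggressiveness. The series concerns psychosocial stress, and the labels do not say how either trait was scored. Group names give stress response first and aggressiveness second, and the number after them tells the 3 animals of a group apart (high-low 3).

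The proteasome is the protease that destroys most short-lived, damaged and misfolded proteins of the cell. Its barrel, the 20S core, has outer rings of alpha subunits (PSMA) that gate the entry and inner rings of beta subunits (PSMB), some of which cut. A regulatory cap, the 19S particle, binds tagged substrates and unfolds them with a ring of ATPases (PSMC) held by further subunits (PSMD). Proteins are tagged with ubiquitin by a cascade in which an activating enzyme (E1) hands ubiquitin to a conjugating enzyme (E2, the UBE2 genes), which works with a ligase (E3) that selects the substrate. In the liver this system removes misfolded secretory proteins drawn back from the endoplasmic reticulum and turns over metabolic enzymes, and interferon exchanges catalytic subunits to make peptides for antigen presentation.

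Of the 15 hepatocyte markers listed, 14 were on the array, with summed signals of 419600 to 606100 in animals of low stress response and 461800 to 533400 in those of high stress response. Markers of other cells were present too. Earlier work on these data had singled out the arrays of high-high 3 and high-low 3. Their median correlations with the other arrays over all probe sets were 0.9539 and 0.9563, against 0.9549 for low-high 3 and 0.9581 to 0.963 for the rest. The highest signal of a gene fell on high-high 3 for 18 of the 61 genes and on high-low 3 for 11. For the genes with the smallest p for stress response, the value is therefore also given without them. Both are of high stress response, so this check takes animals from that level only. The lowest signal fell on low-high 1 for 10 genes and on low-low 3, low-high 3 and high-high 1 for 8 each. No pair of low stress response was left out in the same way. The ratio of 3' to 5' signals of the control gene EF1A, a measure of RNA integrity, was 0.892 ± 0.0878 on the log2 scale in animals of high aggressiveness and 0.721 ± 0.0257 in those of low aggressiveness (SD, n = 6 each). That difference had an exact permutation p of 0.00216, two-sided, and 0.013 after adjustment over 6 such tests. The ratios of GAPDH and actin gave adjusted p of 0.857 and 0.861 for aggressiveness.

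No gene of the ubiquitin-proteasome system differed between the groups past the adjusted threshold in any of 8 comparisons, and core proteasome genes held to narrow ranges across the 12 animals. PSMB4, a structural subunit of the beta ring, ran from 8820 in high-high 1 to 10470 in high-high 2, a range of 1.19-fold. PSMB1, another, ran from 10310 to 12070, or 1.17-fold. The alpha subunit PSMA7 lay between 16960 and 20750. Among the subunits of the 26S particle, the highest animal stood above the lowest by 1.22 to 1.59-fold for the 7 alpha subunits, 1.17 to 1.32-fold for the 4 structural beta subunits and 1.23 to 1.48-fold for the 3 catalytic ones. The 5 ATPases spanned 1.26 to 1.58-fold and the 10 other cap subunits 1.23 to 1.74-fold. In all, 35 of 37 proteasome genes and 18 of 24 UBE2 genes ranged less than 2-fold over the 12 animals. The share of all 5810 genes below that range was not computed. The standard deviation (SD) of log2(signal + 16) between animals had a median of 0.1529 for proteasome genes, 0.1936 for UBE2 genes and 0.271 over all 5810 genes. Bright genes vary less on this scale, so the comparison was repeated at a mean signal of at least 2000. There the median SD was 0.1283 for 28 proteasome genes and 0.1999 for 1298 genes of any kind, these included. The cut sets a floor and does not match the genes for signal. These are descriptions over genes that share the same 12 arrays, and no test was made of them.

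**Figure D1:**
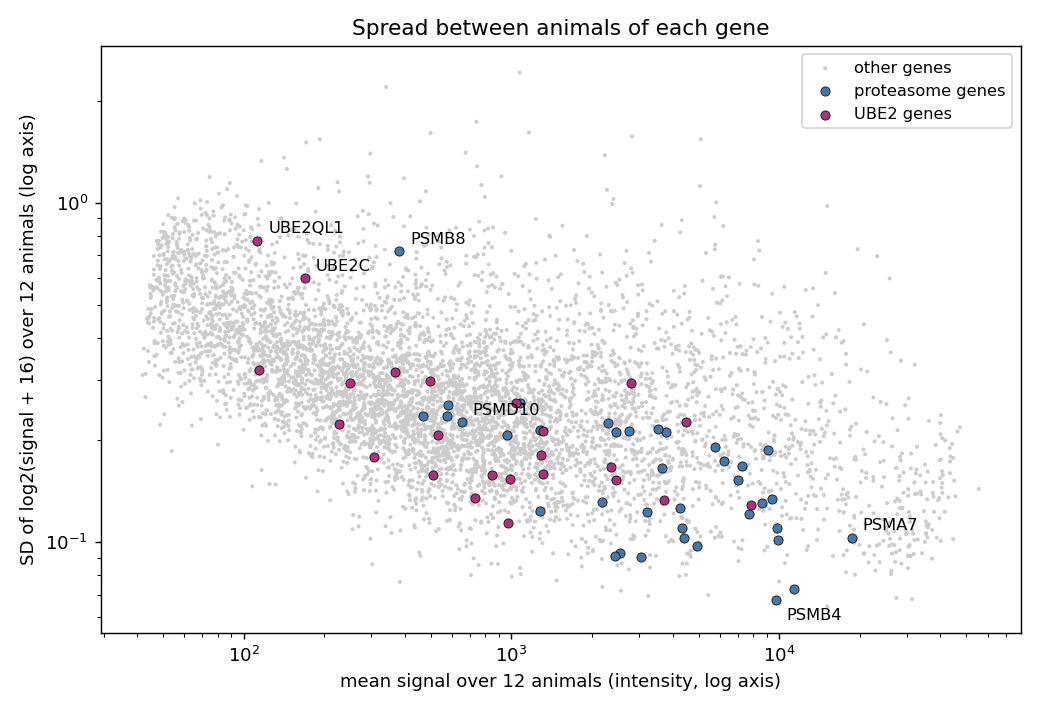
Each point is a gene, with its mean signal over the 12 animals (horizontal, log axis) and the SD of log2(signal + 16) between them (vertical, log axis). Grey points are the other annotated genes, blue points proteasome genes and purple points UBE2 genes. PSMB4 lies lowest of the 61 at 0.0675, while PSMB8, UBE2C and UBE2QL1 stand above the others at 0.7199, 0.5992 and 0.7737.

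Correlations between subunits across the animals were weak at the median. Over the 406 pairs of 29 genes of the 26S particle, the median Pearson correlation across the 12 arrays was 0.041, with 54.4% of pairs above 0. Over 276 pairs of UBE2 genes it was 0.0603. All pairs of the 5810 genes had a median of 0.0078. The points of such a correlation share their arrays and their scaling. Some genes were measured by more than one probe set. Over 18 further kept probe sets of 13 genes, the correlation with the counted probe set had a median of 0.196. It was 0.933 for UBE2Q1 and 0.807 and 0.721 for UBE2D2, a conjugating enzyme that works with many ligases. For the ATPase PSMC2 it was 0.038 and -0.172.

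**Figure D2:**
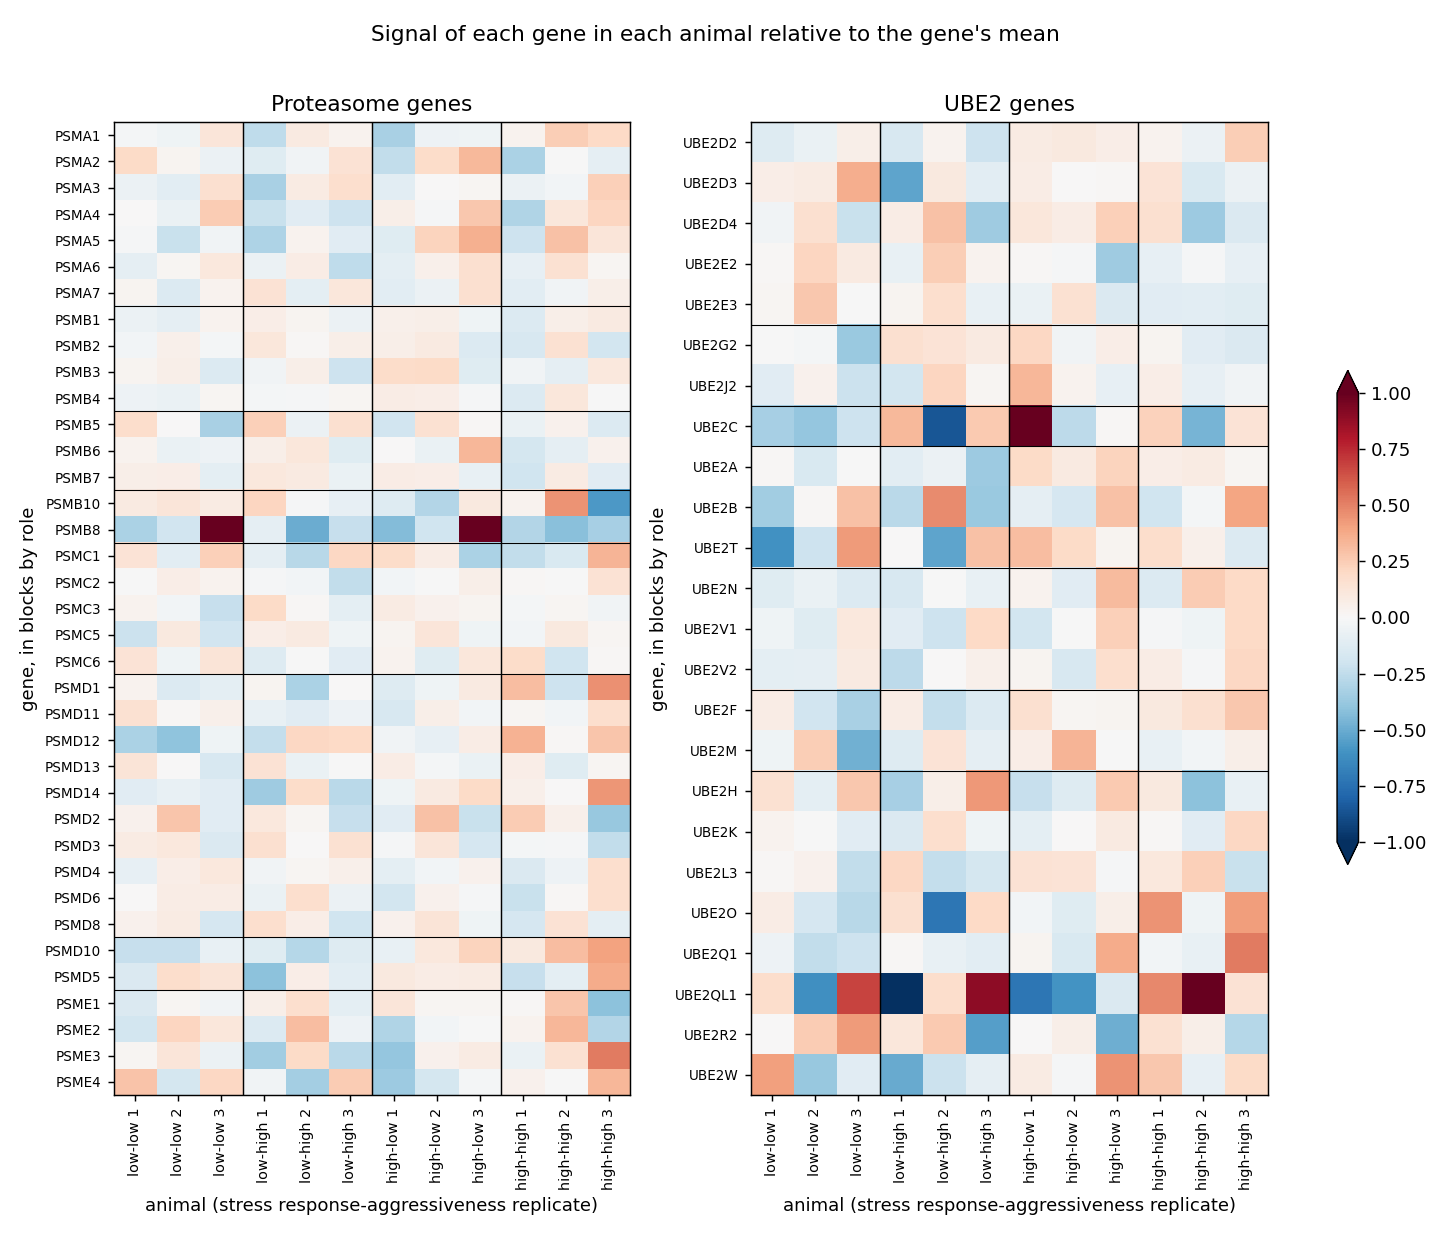
Rows are the 61 genes in blocks by role, columns the 12 animals, and the colour is log2(signal + 16) less the gene's own mean, cut at -1 and 1. Most cells are pale, and the strongest colours are those of PSMB8 in low-low 3 and high-low 3, of UBE2C in high-low 1 and low-high 2, and of UBE2QL1.

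Animals of high and low stress response, 6 against 6, were compared first, in a fit that also held aggressiveness and sex. With limma, 0 of 61 genes passed an adjusted p of 0.05, as did 0% of all 15999 probe sets tested. At an unadjusted p under 0.05 there were 3 of the 61 genes (4.92%), against 8.16% of all probe sets. All 3 had higher signals with high stress response, a direction in which 5.03% of all probe sets lay at that threshold, while none lay on the lower side, which held 3.13% of all. The share of these genes at that threshold was thus no larger than the background. Signals come from whole tissue, in which fewer cells of a type and less RNA per cell cannot be told apart.

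The gene with the smallest p was PSMD10, which encodes gankyrin, a chaperone that helps to assemble the base of the 19S cap and is known as an oncoprotein of the liver. Its signals in the low stress response group had a lowest, median and highest value of 528.3, 569.2 and 613.9. In the high group these were 613.4, 725.5 and 861. The groups overlapped only in that high-low 1, at 613.4, lay just under low-low 3, at 613.9. The means were 570 ± 33.0 and 737.3 ± 88.6 (SD, n = 6 each). The log2 fold change was 0.36 ± 0.11 (SE), with a 95% interval of 0.11 to 0.60 and an adjusted p of 0.523. By group, the means were 570.2 ± 37.8 in low-low, 569.8 ± 35.9 in low-high, 688.1 ± 71.7 in high-low and 786.5 ± 85.1 in high-high (SD, n = 3 each). Without high-high 3 and high-low 3 the log2 fold change of PSMD10 was 0.28. The other assembly chaperone measured, PSMD5, had a log2 fold change of 0.098 ± 0.14 (SE).

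UBE2F, which conjugates the ubiquitin-like protein NEDD8 to cullins, had signals of 1019, 1139 and 1346 (lowest, median and highest) with low stress response and of 1298, 1399 and 1539 with high. The groups overlapped through low-low 1 and low-high 1. The log2 fold change was 0.25 ± 0.11 (SE) with an adjusted p of 0.586. UBE2A, an enzyme of the RAD6 kind that marks histone H2B and the sliding clamp at damaged DNA, had signals of 1007, 1227 and 1307 with low stress response and of 1314, 1380 and 1523 with high. It was the only one of the 61 genes in which the groups did not overlap, which was so for 0.538% of all probe sets in either direction. The gap between the highest low and the lowest high animal was small, from 1307 in low-low 1 to 1314 in high-high 3. Its log2 fold change was 0.22 ± 0.10 (SE) with an adjusted p of 0.607. Without high-high 3 and high-low 3 the values were 0.25 for UBE2F and 0.21 for UBE2A. A second probe set of UBE2A gave 0.043 ± 0.12 (SE) and correlated with the first at 0.158 across the 12 arrays.

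**Figure D3:**
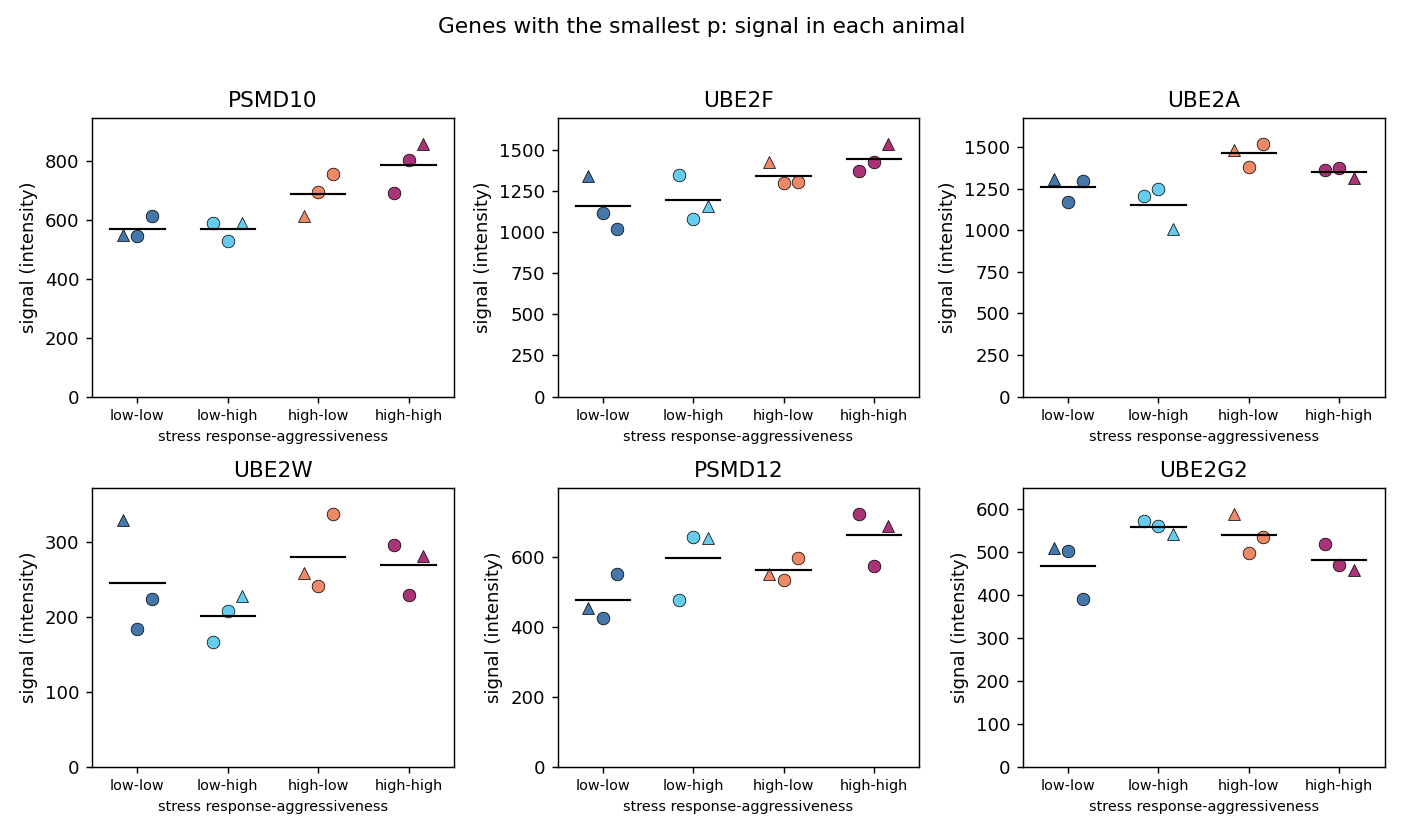
Signals (linear intensity, axis from 0) of 6 genes with small p in one of the comparisons, in each animal by group. Triangles are females, circles males and bars group means. PSMD10 lies between 528.3 and 613.9 in animals of low stress response and between 613.4 and 861 in those of high stress response.

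The next genes on the higher side were UBE2W, which adds ubiquitin to the amino end of proteins (log2 fold change 0.30 ± 0.15), and PSMD14, the subunit of the cap that removes ubiquitin from substrates (0.24 ± 0.13). They were followed by the alpha subunit PSMA5 (0.22 ± 0.13), UBE2Q1 (0.22 ± 0.13) and UBE2N (0.19 ± 0.12), which builds chains through lysine 63 with UBE2V1 and UBE2V2. The smallest p on the lower side belonged to UBE2E2 (-0.18 ± 0.11) and UBE2E3 (-0.14 ± 0.11), closely related to the UBE2D enzymes. PSMD3, a subunit of the lid of the cap, had -0.12 ± 0.11, and UBE2R2, which serves cullin ligases, -0.17 ± 0.16. UBE2H had -0.16 ± 0.16, PSMB10 -0.14 ± 0.15, PSME2 -0.088 ± 0.12 and PSMB2 -0.063 ± 0.11. Errors are standard errors, and the adjusted p of these 13 genes ran from 0.649 to 0.920. Many of these values moved with single animals. UBE2Q1 had signals of 5739 in high-low 3 and 6388 in high-high 3, above the other 10 animals, and its value was 0.061 without both. Without the same animals UBE2W had 0.24, PSMD14 0.14, PSMA5 0.15 and UBE2N 0.11. On the lower side UBE2E2 had -0.12, UBE2E3 -0.11, PSMD3 -0.037, UBE2R2 -0.052, UBE2H -0.23, PSMB10 -0.063 and PSME2 -0.059, and PSMB2 had 0.0017. With 1 animal left out at a time, UBE2R2 ran from -0.28 without low-high 3 to -0.038 without high-low 3. PSMB10 ran from -0.24 without high-high 2 to -0.043 without high-high 3. UBE2H was -0.071 without low-high 3, and PSMD3 -0.064 without high-high 3.

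By role, the values of stress response were small for the core of the proteasome. The 7 alpha subunits had log2 fold changes from -0.049 to 0.22, the 4 structural beta subunits from -0.063 to 0.078 and the 5 ATPases from -0.041 to 0.064. The catalytic subunits PSMB5, PSMB6 and PSMB7, which cut after hydrophobic, acidic and basic residues, had values of -0.067 ± 0.13, 0.014 ± 0.12 and -0.051 ± 0.11 (SE). PSMB5 ran from 5754 to 8495 in animals of low stress response and from 6308 to 8001 in those of high stress response, so that the second range lay inside the first. UBE2J2 and UBE2G2, the conjugating enzymes measured here that serve degradation at the endoplasmic reticulum, had values of 0.078 ± 0.12 and 0.0015 ± 0.13 (SE). PSMB8 had 0.020 ± 0.35, PSME1 0.012 and PSME3 0.11. The intervals bound these differences. For 54 of 61 genes the 95% interval for stress response lay within 1.5-fold either way, and for 59 within 2-fold. The median size of the log2 fold change was 0.0701 over the 61 genes and 0.1451 over all probe sets. Their standard errors differed too, with medians of 0.1221 and 0.1753, and bright genes vary less on this scale.

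The signs of the values were counted for both gene families. For stress response, 20 of 24 UBE2 genes (83.3%) and 23 of 37 proteasome genes (62.2%) had a log2 fold change above 0, together 43 of 61 (70.5%), against 55.7% of all probe sets. The medians were 0.0973 for UBE2 genes, 0.0136 for proteasome genes and 0.0279 for all probe sets. The scaling of the arrays bore on these counts. With each array centred on its median, 16 of 24 UBE2 genes and 12 of 37 proteasome genes lay above 0, and the proteasome median became -0.0306 beside a UBE2 median of 0.0531 and 46.7% of all probe sets above 0. With quantile normalization 17 of 24 UBE2 genes lay above 0, with a median of 0.0859, and 21 of 37 proteasome genes, with a median of 0.0405. The calls of all probe sets at an unadjusted p under 0.05 were 61.7% on the higher side as deposited, 51.9% with quantile normalization and 44.4% with median centring. Without high-high 3 and high-low 3, 16 of 24 UBE2 genes lay above 0, with a median of 0.083, and 19 of 37 proteasome genes, with a median of 0.0009. Leaving out high-high 3 alone gave a proteasome median of -0.0047.

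**Figure D4:**
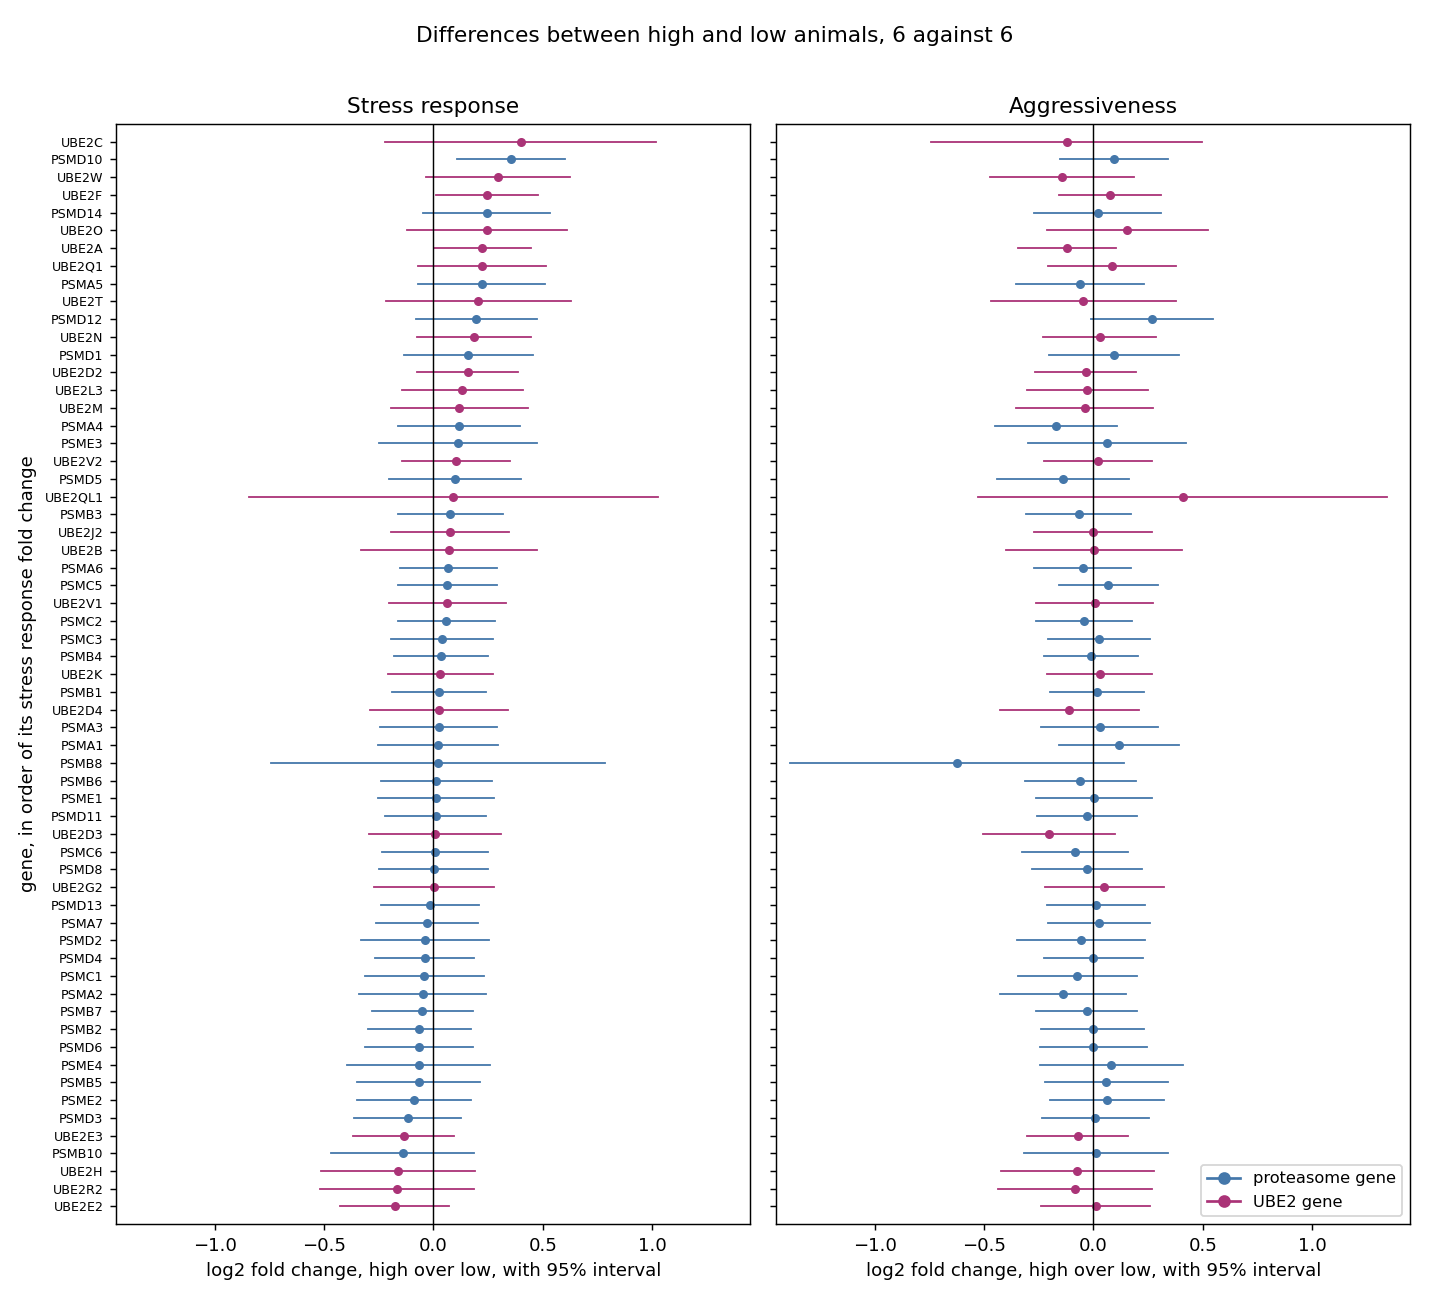
Log2 fold change (point) and 95% interval (line) of the 61 genes for stress response (left) and aggressiveness (right), high over low, 6 animals against 6, in the order of the stress response values. The intervals of PSMD10, UBE2F and UBE2A lie above 0 for stress response before adjustment, and all 61 intervals for aggressiveness include 0.

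Other genes of the pathway gave like values for stress response, for which 55.7% of all probe sets lay above 0. Of 6 measured genes of ubiquitin supply and activation, 4 had log2 fold changes above 0 and 0 passed the adjusted threshold. The ubiquitin gene UBB had 0.038 ± 0.13 (SE), and SAE1, of the E1 for the ubiquitin-like SUMO, had 0.22 ± 0.10. Of 7 genes for assembly, shuttles and regulators, 4 lay above 0. Among them, VCP, the ATPase that extracts proteins for degradation, had 0.068 ± 0.11. Of 11 ubiquitin ligases, 7 lay above 0, with a range from -0.096 to 0.15. Of 6 partners in antigen processing, 3 lay above 0, and CALR (0.31 ± 0.12) and PDIA3 (0.33 ± 0.11) had an unadjusted p under 0.05 and adjusted p of 0.572 and 0.545. Both are chaperones of the endoplasmic reticulum.

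A list of 13 measured genes of endoplasmic reticulum stress had a median log2 fold change of 0.4723 for stress response. All 13 were above 0, against 55.7% of all probe sets. At an unadjusted p under 0.05 there were 11, against 8.16% of all, and 0 passed the adjusted threshold. Their summed signal was 70900 to 105400 with high stress response and 59610 to 69320 with low. This list was known from an earlier treatment of these data and is given for scale only. Markers of other cells were compared by stress response too, and 0 of them passed the adjusted threshold. The 7 cholangiocyte markers on the array summed to 9071 to 11940 with low stress response and to 11380 to 31130 with high, ranges that overlapped. The higher values included KRT18 (log2 fold change 0.98 ± 0.28) and KRT8 (0.54 ± 0.21). The more specific markers KRT19 and EPCAM had values of -0.32 ± 0.56 and 0.13 ± 0.20, and PROM1 had -1.07 ± 0.34. Of 7 tested Kupffer cell markers, 3 lay above 0, with CD163 at 0.57 ± 0.18 and MARCO at -0.78 ± 0.25 (SE). Values above 0 were found for 6 of 6 neutrophil, 2 of 5 endothelial, 5 of 7 stellate cell, 3 of 4 red cell and 2 of 8 leukocyte markers, and for 10 of 13 interferon-stimulated genes. These counts stand beside the 55.7% of all probe sets above 0. The part of these cells in the values of the ubiquitin-proteasome genes was not tested.

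Animals of high and low aggressiveness, again 6 against 6, gave no gene past either threshold. Of the 61 genes, 0 passed an adjusted p of 0.05 (0% of all probe sets), and 0 had an unadjusted p under 0.05, against 3.22% of all probe sets. Log2 fold changes were above 0 for 29 of 61 genes (47.5%), against 52% of all, and had a median of -0.0009. Groups that did not overlap were found for 0 of 61 genes and for 0.0875% of all probe sets. The smallest p belonged to PSMD12, a subunit of the lid of the cap. Its signals were 425.8, 542.7 and 597.8 (lowest, median and highest) with low aggressiveness and 477, 655.4 and 724.4 with high. The ranges overlapped, with low-high 1, at 477, and high-high 2, at 573.3, within the range of the low group. The log2 fold change was 0.27 ± 0.13 (SE), with a 95% interval of -0.012 to 0.54 and an adjusted p of 1.

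Further genes on the higher side were UBE2QL1 (0.41 ± 0.43), PSMA1 (0.12 ± 0.12) and UBE2O (0.16 ± 0.17). PSMD10, UBE2F, PSMD1 and PSMC5 had values between 0.069 and 0.094. On the lower side were PSMB8 (-0.62 ± 0.35), UBE2D3 (-0.20 ± 0.14) and PSMA4 (-0.17 ± 0.13). UBE2A, PSMA2, PSMD5, UBE2W and UBE2D4 had values between -0.14 and -0.11. The probe set of UBE2D3, like the counted one of UBE2E3, is of a type that may also bind related transcripts. Errors are standard errors, and the adjusted p of all 61 genes was 1. The catalytic subunits PSMB5, PSMB6 and PSMB7 had values of 0.058, -0.059 and -0.031, and PSMB10 had 0.012. The activators PSME1, PSME2 and PSME3 had 0.0025, 0.063 and 0.062. UBE2J2 had -0.0010, UBE2G2 0.051 and UBE2C -0.12. The 95% interval lay within 1.5-fold either way for 58 of 61 genes. The EF1A ratio did not overlap between these groups, at 0.685 to 0.748 with low aggressiveness and 0.757 to 0.993 with high. Ratio and trait can therefore hardly be told apart here. The ratio was entered as a covariate in an alternative fit. The median of the 61 genes was then 0.0565 and that of all probe sets -0.0755. In that fit UBE2O had -0.48, UBE2QL1 -0.32 and PSMD1 -0.21, all of the opposite sign, PSMA4 had -0.030 and PSMB8 -1.30. The part of the ratio in these values was not tested further. Single animals moved several values too. UBE2QL1 ran from 0.19 without high-high 2 to 0.80 without low-high 1, PSMA1 was 0.046 without high-low 1, UBE2O was 0.077 without high-high 1, and UBE2D3 was -0.10 without low-high 1. Second probe sets of UBE2V1 and UBE2L3 had values of 0.61 ± 0.28 and 0.42 ± 0.18 (SE) for aggressiveness, both at an unadjusted p under 0.05, where the counted probe sets had 0.0069 and -0.027. Their mean signals were 101.9 and 120.9. This second probe set of UBE2V1 had 1.07 ± 0.36 (SE) for aggressiveness within high stress response. For stress response within low aggressiveness it had -0.89 ± 0.36. Both had an unadjusted p under 0.05, as did its F-test over the 4 groups. The counts given below hold only the counted probe sets.

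The interaction asks whether the difference by stress response depended on aggressiveness. Of the 61 genes 0 passed an adjusted p of 0.05 (0% of all probe sets) and 0 an unadjusted one, against 3.87% of all. Values above 0 were found for 33 of 61 genes (54.1%), against 49.4% of all. The smallest p was that of UBE2G2, an enzyme of degradation at the endoplasmic reticulum. Its signals were 508.2, 502.8 and 389.5 in low-low, 571.6, 559.8 and 541.6 in low-high, 588.9, 496.3 and 533.4 in high-low and 517.8, 469.9 and 457.9 in high-high. All animals of low-high thus lay above those of low-low, whereas high-high and high-low overlapped. The interaction was -0.42 ± 0.23 (SE), with an adjusted p of 0.999. UBE2QL1 had 1.32 ± 0.79, PSME4, the activator PA200, 0.46 ± 0.28, and PSMA1 0.36 ± 0.24. PSME3, a nuclear activator, had 0.46 ± 0.32 and UBE2R2 0.40 ± 0.31. With 1 animal left out, UBE2QL1 was 0.60 without low-high 1 and PSME4 0.25 without high-low 1. PSME3 was 0.23 without high-high 3, and UBE2R2 ran from 0.17 without high-low 3 to 0.64 without high-low 1. Groups of 3 leave wide intervals here. Only 12 of 61 genes had an interaction interval within 1.5-fold either way, and 53 within 2-fold.

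Over the 4 groups at once, the moderated F-test gave 0 of 61 genes with an adjusted p under 0.05 (0% of all probe sets) and 1 with an unadjusted p under it (1.64%), against 4.69% of all. This gene was PSMD10, and PSMD12, UBE2A, UBE2F, UBE2W and UBE2QL1 followed in order of p, all 6 with an adjusted p of 1.

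Within animals of low aggressiveness, high against low stress response gave 0 of 61 genes past the adjusted threshold (0% of all) and 0 past the unadjusted one (5.12% of all). The smallest p were those of UBE2C (0.74 ± 0.39), UBE2R2 (-0.37 ± 0.22) and PSMD10 (0.26 ± 0.16). The value of UBE2C was 0.27 without high-low 1. That of UBE2R2 was -0.13 without high-low 3 and -0.61 without high-low 1. In 5 of 61 genes the groups of 3 did not overlap (8.2%), against 10.8% of all probe sets. These were PSMD14, UBE2A and UBE2D2 on the higher side and PSMA1 and UBE2E2 on the lower.

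Within animals of high aggressiveness, 0 genes passed the adjusted threshold (0% of all) and 1 the unadjusted one (6.13% of all). PSMD10 had signals of 591.7, 528.3 and 589.2 in low-high and of 693.8, 804.6 and 861 in high-high. The 2 groups did not overlap, and the log2 fold change was 0.45 ± 0.16 (SE), with an adjusted p of 0.799. UBE2W followed with 0.40 ± 0.22 and UBE2F with 0.28 ± 0.16. Groups did not overlap in 9 of 61 genes (14.8%), against 10.8% of all probe sets. They were PSMC2, PSMD10, PSMD11, UBE2A, UBE2F and UBE2W on the higher side and PSMD3, UBE2E3 and UBE2G2 on the lower. The other kept probe sets of PSMD11 had values of -0.12 ± 0.20 and -0.20 ± 0.32 in this comparison, against 0.13 for the counted one. Those of PSMC2 had 0.070 ± 0.15 and -0.025 ± 0.14, against 0.14. The interaction for PSMD10 was 0.19 ± 0.23 (SE), with an adjusted p of 0.999, so its difference was not shown to depend on aggressiveness.

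For aggressiveness within animals of low stress response, 0 genes passed the adjusted threshold (0% of all) and 0 the unadjusted one (3.19% of all). The smallest p were those of UBE2D3 (-0.35 ± 0.19), PSMD12 (0.31 ± 0.19) and UBE2G2 (0.26 ± 0.16). UBE2D3 was -0.16 without low-high 1, and UBE2G2 0.14 without low-low 3. Groups did not overlap in 4 of 61 genes (6.56%), against 7.73% of all. Within animals of high stress response, 0 genes passed the adjusted threshold (0.0125% of all, or 2 probe sets) and 0 the unadjusted one (3.63% of all). UBE2QL1 had 1.07 ± 0.56, PSMA1 0.30 ± 0.17 and PSME4 0.31 ± 0.20. Without high-low 1 PSMA1 had 0.19 and PSME4 0.11, and without high-high 3 and high-low 3 UBE2QL1 had 1.76. Groups did not overlap in 5 of 61 genes (8.2%), against 7.54% of all. PSMA1, with 2899, 3497 and 3519 in high-low and 3718, 4295 and 4166 in high-high, was one of them.

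The inducible subunits are those that replace catalytic subunits in the immunoproteasome, PSMB8 in place of PSMB5 and PSMB10 in place of PSMB7. PSMB8 had signals of 260.3, 284.4 and 812.8 in low-low, 306.4, 227.2 and 276.2 in low-high, 237.8, 282.9 and 1133 in high-low and 263.8, 241 and 257.1 in high-high. Low-low 3 and high-low 3, both males of low aggressiveness, thus stood far above the other 10 animals, which lay between 227.2 and 306.4. The other 4 animals of low aggressiveness lay within the range of the 6 of high aggressiveness. The value for aggressiveness of -0.62 became -0.43 without low-low 3 and -0.33 without high-low 3. It was -0.98 in males alone and -1.30 with the EF1A ratio as a covariate. Of 15999 probe sets, that of PSMB8 was the only 1 in which these 2 animals were the highest and both at least 2-fold above the third. This count was made after the values of PSMB8 had been seen, and probe sets below the filter on low signals did not enter it.

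PSMB10 did not share this pattern, with 1124 in low-low 3 and 1136 in high-low 3, inside its range of 706.8 to 1452. Neither did PSME1 and PSME2, which form the activator PA28 and are induced by interferon. PSME1 had 6043 and 6285 in the 2 animals within a range of 4651 to 7509, and PSME2 had 4052 and 3746 within 3047 to 4721. Across the 12 arrays PSMB10 correlated with PSME1 at 0.712 and with PSME2 at 0.597, and PSME1 with PSME2 at 0.627, all 3 measured on the same arrays. PSMB8 correlated with PSMB10 at 0.162, with PSME1 at -0.056 and with PSME2 at 0.065. TAP1, the peptide transporter that neighbours PSMB8 with no protein-coding gene between them in the RefSeq annotation of Sscrofa11.1, had a kept probe set with 1143 in low-low 3 and 784.4 in high-low 3. Its range in the other animals was 461.2 to 889.1. The interferon-induced gene MX1 had 1612 and 1352 in the 2 animals, within a range of 445.6 to 2995. ISG15 had 1625.5 in low-low 3 and 3844.8 in high-low 3, the second its highest, against 1529.5 to 3430.3 in the others. IRF1 had 1384.2 in low-low 3 and 913 in high-low 3, against 868.7 to 1592.3 in the others. The 10 lymphocyte and leukocyte markers on the array summed to 1445 to 2041 in animals of low aggressiveness and to 1358 to 2069 in those of high aggressiveness, and their part in the values of PSMB8 was not tested.

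**Figure D5:**
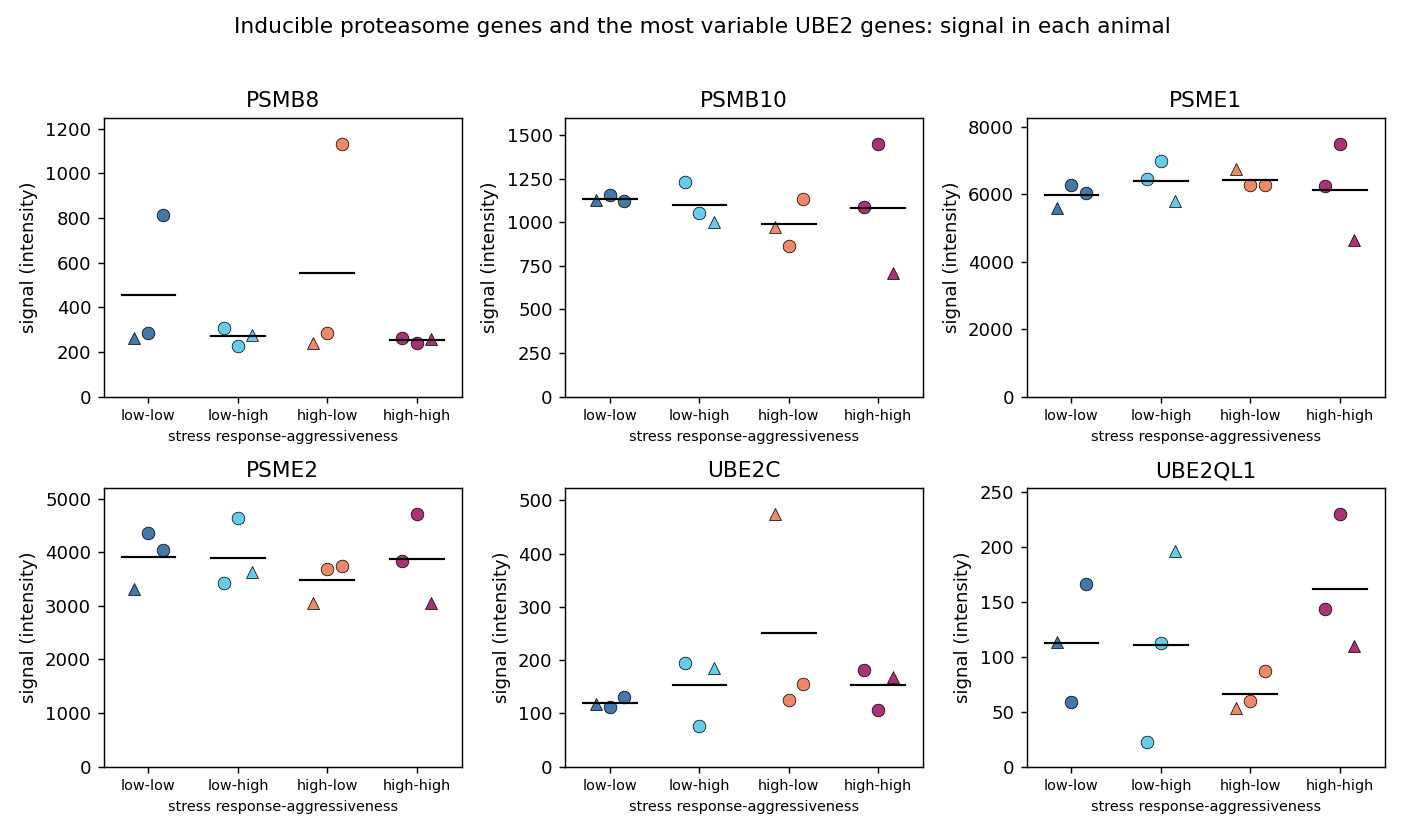
Signals (linear intensity, axis from 0) of the inducible subunits PSMB8 and PSMB10, the activator subunits PSME1 and PSME2, and UBE2C and UBE2QL1 in each animal by group. Triangles are females, circles males and bars group means. PSMB8 reaches 812.8 in low-low 3 and 1133 in high-low 3, and UBE2C 474.9 in high-low 1.

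UBE2C, the conjugating enzyme of the anaphase-promoting complex and a marker of dividing cells, had signals of 117.7, 112.7 and 130.2 in low-low, 195, 77 and 185.7 in low-high, 474.9, 124.3 and 154.2 in high-low and 182.2, 106.2 and 169.1 in high-high. The next highest animal after high-low 1 was low-high 1, at 195. The stress response value of UBE2C was 0.40 ± 0.28 (SE), with an adjusted p of 0.746. It was 0.15 without high-low 1. A second probe set of UBE2C, left out by the filter on low signals, had 37.2 in high-low 1 and 51.1 in high-high 1, its highest. High-low 1 was also the highest animal for 7 of 10 tested mitotic genes. The share of all probe sets highest in that animal was not computed. Its lead was wide for BIRC5 (479, others up to 231.6), CCNB1 (301.6, others up to 129.5) and RRM2 (186.8, others up to 95.1). It was smaller for CCNB2 (103.8, others up to 86.2), AURKB (149.2, others up to 133.3), CDC20 (143, others up to 129.3) and PLK1 (89.3, others up to 76.7). TOP2A was highest in low-high 1, AURKA in high-high 1 and PCNA in low-low 1. All 10 tested mitotic genes had stress response values above 0, against 55.7% of all probe sets, with a median of 0.2589. Of them, 2 had an unadjusted p under 0.05 in the limma fit, against 8.16% of all probe sets. These counts and the median were not computed without high-low 1. UBE2QL1, a relative of the conjugating enzymes, had the widest range of the 61 genes, from 22.1 in low-high 1 to 229.9 in high-high 2, or 10.4-fold. Its signals were 113, 58.3 and 166.4 in low-low, 22.1, 112.6 and 195.9 in low-high, 53, 59.4 and 86.9 in high-low and 143.4, 229.9 and 110 in high-high. The high-high animals all lay above the high-low animals, and the groups of low stress response overlapped. Its values lie near the lowest mean signal kept, 40.58, where signals are least precise.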

How the data were processed

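Total RNA from the liver of 12 pigs was labelled with biotin and hybridized to the Affymetrix porcine array, 1 array per animal, so p-values measure the spread between these animals. The values are probe set signals, deposited by the authors as linear intensity made with GCOS 1.1.1, per the submitters' processing notes. How probes were summarised and arrays scaled is not given in the sources used here. Each array had the same 2% trimmed mean, 500.2, and no further scaling was applied. The number of arrays limits the precision.

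Of 24123 probe sets, 124 Affymetrix controls and then the 33.3% with the lowest mean were left out, which left 15999, each with a mean of at least 40.58. Symbols came from the platform annotation. It gave 10099 probe sets 1 symbol, 198 several and 13826 none, and only those with 1 were named. Values were taken as log2(signal + 16), so fold changes of dim genes are understated. limma 3.58.1 in R 4.3.3 was fitted with stress response, aggressiveness and sex (8 residual degrees of freedom), and again with the 4 groups and sex (7) for the interaction, the F-test and the effects within a level. P-values were adjusted by Benjamini-Hochberg over all 15999, with a threshold of 0.05. Fold changes are high over low. Control ratios were compared with exact permutation tests, two-sided.

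The genes, the lists of roles, pathways and markers, and the tests were chosen with earlier results of these data known. The text names, for high over low, the 8 genes of smallest p above 0 and the 8 below 0 for stress response and for aggressiveness, the 6 with the smallest p for the interaction and the F-test, the 3 for each effect within a level, and PSMB5, PSMB6, PSMB7, PSMB8, PSMB10, PSME1, PSME2, PSME3, UBE2J2, UBE2G2 and UBE2C. Other genes named were chosen for their range or role after their values were seen. PSMB9, UBE2J1 and UBE2L6 were not analysed here. Replicate numbers follow the order of the samples and pair nothing.

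Alternatives in processing were quantile normalization, median centring, no filter or one that left out the lowest 50%, and constants of 1 and 64. Other rules for genes with several probe sets were tried too. Alternatives in the fit were no sex term, trend or robust variance estimation, array weights, the EF1A ratio as a covariate and the interaction kept in the model. Fits were also made of males only, without each animal in turn, and without both high-high 3 and high-low 3. The fits were tested on simulated data with differences larger than those described here, so that test does not show how well small differences are found. Plots used matplotlib 3.10.9 (Python 3.11.15).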

Additional observations from a re-analysis of the deposited data

Results flagged for a closer look

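Signals of the named genes were searched for a single animal far from the other 5 of its level of stress response or aggressiveness, by Dixon's criterion with a critical value of 0.625. Of 102 groups of 6 checked, 10 held such an animal. For independent groups of normally spread values the criterion marks about 1 in 20. These groups overlap, since many genes were grouped by both factors, and genes were named partly for a small p. The share over all probe sets was not computed, so the count has no background to stand beside. PSMB8 reached 812.8 in low-low 3, against 227.2 to 306.4 in the other animals of low stress response, and 1133 in high-low 3, against 237.8 to 282.9 in the others of high stress response. UBE2C reached 474.9 in high-low 1, against 106.2 to 182.2 in the others of high stress response and 112.7 to 154.2 in the others of low aggressiveness, so that it was marked under both factors. UBE2E2 was lowest in high-low 3, at 764.2, against 924.2 to 986.8 in the others of high stress response. UBE2E3 reached 4089 in high-low 2, against 3327 to 3518 in the same group, and UBE2J2 1067 in high-low 1, against 793.4 to 883.5. Among animals of low aggressiveness, PSMB6 reached 11800 in high-low 3, against 8915 to 9576. PSMD5 was lowest in low-low 1, at 861, against 1004 to 1082, and UBE2D3 reached 1677 in low-low 3, against 1303 to 1372. All 10 lie in animals of low aggressiveness, and the group with high aggressiveness held none. They are not independent, since UBE2C in high-low 1 counts under both factors and several fall on the same animal. No reason for these values was tested.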

How the results depend on the processing

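No alternative brought a gene past the adjusted threshold in any comparison. The lowest adjusted p of a named gene was 0.369, for PSMD10. Of 75 named results, 52 kept their sign under every alternative and 23 did not, with 81 values of changed sign, each for a gene that no setting called. No paired analysis was possible because the labels carry no replicate numbers. The cause of these changes was not tested.

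For stress response, the count at an unadjusted p under 0.05 was 1 in place of 3 without the filter, with quantile normalization and with median centring. It was also 1 with the interaction in the model and without both high-high 3 and high-low 3, and 1 to 4 with one animal left out. It was 1 without low-low 2 or 3, low-high 3, high-low 3 or high-high 2 or 3. The median of the 61 genes was -0.0127 with median centring. For aggressiveness that count was 1 in place of 0 without the sex term, with the lowest 50% left out, with quantile normalization and with array weights, and 0 to 2 with one animal left out. It was 2 without low-high 1, and 1 without low-high 2, low-low 3, high-high 2 or high-low 2. The median with the EF1A ratio was 0.0565. The interaction count was 0 to 1 with one animal left out, and its median was 0.0887 with median centring, -0.0199 in males, -0.0375 without both animals and -0.0537 to 0.0616 with one left out. The count of the F-test was 0 in place of 1 without the filter, with quantile normalization, median centring, robust estimation, males, both animals left out and the EF1A ratio, and 0 to 1 with one animal left out.

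Within low aggressiveness, the median for stress response was -0.0447 with median centring and 0.0043 without both animals, and the count was 1 with the mean over probe sets and 0 to 1 with one animal left out. Within high aggressiveness the count was 0 without both animals and 0 to 3 with one left out, and the median 0.0181 to 0.0738. That count was 0 without high-high 3, 3 without low-high 1 and 2 without low-high 3 or high-high 2. For aggressiveness within low stress response, the median was -0.0788 with median centring and 0.0312 with the EF1A ratio, and the count 0 to 1 with one animal left out. Within high stress response, the median was -0.042 in males, -0.0507 without both animals, 0.0599 with the EF1A ratio and -0.0486 to 0.043 with one animal left out. The count was 1 with the mean over probe sets, 1 without both animals and 0 to 1 with one left out.

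Sign changes for stress response were as follows. With quantile normalization PSMB8 had -0.0004 and UBE2G2 -0.032. With median centring PSMB6 had -0.031, PSMB8 -0.024, PSME1 -0.032 and UBE2G2 -0.043. With array weights PSMB6 had -0.018 and UBE2G2 -0.020. In males PSMB5 had 0.068 and PSMB6 -0.012. Without both animals PSMB2 had 0.0017, PSMB6 -0.076, PSMB8 -0.36 and PSME3 -0.029. With the EF1A ratio PSMB8 had -0.11. With one animal left out, PSMB6 ran from -0.055 to 0.051, PSMB8 from -0.28 to 0.21, PSME1 from -0.060 to 0.094, PSME3 from -0.019 to 0.22 and UBE2G2 from -0.076 to 0.061.

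For aggressiveness, quantile normalization gave -0.0003 for PSME1 and 0.0071 for UBE2J2, and median centring -0.0073 for PSMB10 and -0.017 for PSME1. Array weights gave 0.017 for UBE2J2. In males PSMD10 had -0.0041, PSMB7 0.031, PSME3 -0.063, UBE2J2 0.058 and UBE2C 0.02. Without both animals PSME3 had -0.061 and UBE2J2 0.013. With the EF1A ratio UBE2QL1 had -0.32, UBE2O -0.48, PSMD1 -0.21, UBE2A 0.044, UBE2D4 0.068, PSMB6 0.096, PSMB7 0.19, PSMB10 -0.11 and UBE2J2 0.15. With the same ratio PSME4 had -0.0098 within high stress response. With one animal left out, PSMB5 ran from -0.019 to 0.11, PSMB6 from -0.094 to 0.0094, PSMB7 from -0.065 to 0.0067, PSMB10 from -0.088 to 0.11, PSME1 from -0.045 to 0.085, PSME3 from -0.071 to 0.14, UBE2J2 from -0.067 to 0.069, UBE2G2 from -0.026 to 0.11 and UBE2C from -0.31 to 0.13.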

Other observations

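A weak probe set of TAP1, left out by the filter on low signals, had 68.5 in low-low 3 and 51.3 in high-low 3, the animals in which PSMB8 stood high, and 2.6 to 23.8 in the other 10. Both values were at least 2-fold above the third, so this probe set met the rule used above for PSMB8, outside that count. It was looked at after the values of PSMB8 had been seen, and another weak TAP1 probe set had 6 and 4.7 in the same animals, the lowest of the 12, against 6.7 to 31.3 in the others. The leukocyte gene PTPRC, also below the filter, had 80.5 and 93.8 in these animals and 2.6 to 71.2 in the others, while CD3E had 116.6 and 107 within a range of 45 to 126.9. Of the 10 leukocyte markers on the array, only PTPRC and CD3E were looked at singly in these animals, likewise after the values of PSMB8 had been seen.

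The second conjugating enzyme of NEDD8, UBE2M, had a stress response log2 fold change of 0.12 ± 0.14 (SE), with an adjusted p of 0.876, beside 0.25 ± 0.11 for UBE2F. UBE2B, the close relative of UBE2A, had 0.070 ± 0.18, with an adjusted p of 0.958.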
